A study of Mus musculus with 8 samples.

Results

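The genes described here are the 9 that encode the DNA methyltransferases *Dnmt1*, *Dnmt3a* and *Dnmt3b*, their partners *Dnmt3l* and *Uhrf1*, the TET enzymes *Tet1*, *Tet2* and *Tet3*, and the glycosylase *Tdg*. They were chosen by gene symbol from the 18990 genes of the deposited expression table, and all 9 were found in it and passed the filter on low values described below. RNA was measured in primary mouse embryonic fibroblasts (MEFs) of the wild-type C57/BL6 (BL6) strain, a mixed culture of early-passage connective tissue cells, during their conversion towards induced pluripotent stem cells. Every culture was transduced with lentiviruses for the tet-STEMCCA cassette, which expresses *Oct4*, *Sox2*, *Klf4* and *c-Myc* (OSKM) when doxycycline is present, and for the rtTA activator. Every culture also received a 40 nM pool of siRNAs, against *Ncor1* (*siNcor1*) or *Oct4* (*siOct4*), before doxycycline was added in a medium with LIF, ascorbic acid, an ALK5 inhibitor and the GSK3 inhibitor chiron. Ascorbic acid is itself a cofactor that supports TET activity, and all 4 groups received it. Cells were collected at day 3 and day 6, with 2 biological replicates for each siRNA and day. Libraries with a non-targeting siRNA were not analysed here, so each comparison is between the siRNAs or between the days.

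DNA methylation is laid down on cytosines in CG dinucleotides and copied at each round of replication. DNMT3A and DNMT3B methylate new sites, DNMT3L has no catalytic activity and stimulates them, and DNMT1 copies the marks onto the daughter strand at hemimethylated sites that UHRF1 recognises. The TET enzymes oxidise methylated cytosine, and TDG excises the most oxidised forms so that base excision repair can restore an unmodified cytosine. Fibroblasts differ from pluripotent cells in this machinery, since mouse pluripotent cells express high levels of *Dnmt3b*, *Dnmt3l* and *Tet1*, and demethylation of pluripotency genes is a known step of reprogramming. The measurements here are of mRNA, and neither the proteins nor DNA methylation were measured.

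The libraries held between 7735742 and 16445192 reads on genes, and 3 reads correspond to between 0.174 and 0.380 CPM (reads scaled to a common library size). *Ncor1* was lower in *siNcor1* than in the *siOct4*-labelled libraries at day 3, with a log2 difference (*siOct4* minus *siNcor1*) of 0.74 (standard error 0.12, adjusted p = 0.0139), a call that was lost without any 1 of the 4 libraries of that day and without the trend. At day 6 the same difference was −0.042 (standard error 0.12, adjusted p = 0.815) and did not pass the threshold. *Pou5f1*, which encodes OCT4, was no lower in *siOct4*-labelled libraries at day 3, with a log2 difference of −0.076 (standard error 0.16, adjusted p = 0.941), and was higher there at day 6, with 1.77 (standard error 0.16, adjusted p = 1.09e-04). Reads from the cassette and from the endogenous genes are counted together, and the groups are therefore named by their labels. The labelled cell type had its defining genes, since the 10 fibroblast markers summed to 6304 to 6432 CPM in *siNcor1* and 8831 to 10380 CPM in the *siOct4*-labelled libraries at day 3, and to 4632 to 5008 and 2555 to 2717 CPM at day 6. These sums are weighted to collagens, with 7930 to 81706 reads per library for *Col1a1* against 83 to 287 for *S100a4*. In *siNcor1* the sum was lower at day 6 although 7 of the 10 markers rose, against 13.8% of all genes. The log2 changes of *Col1a1* and *Col1a2* there were −1.15 and −0.60. Markers of other cells summed to 7.31 to 14.7 CPM (5 macrophage genes), 16.4 to 44.4 CPM (5 endothelial genes, nearly all of it *Tek*), 14.2 to 86.8 CPM (2 muscle genes), 0.870 to 10.9 CPM (5 keratinocyte genes) and 45.0 to 131.7 CPM (4 neural genes), the last with both *siOct4*-labelled libraries of day 6 the highest. In these bulk samples, fewer cells of a type and less RNA per cell cannot be told apart.

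For each comparison limma was run on log2-cpm as deposited, over the 13866 genes whose mean reached 1 CPM, and the adjusted p-values cover all of these genes. A fold change is on the scale of log2-cpm, and a gene is said to rise or fall only when its adjusted p was under 0.05. With 2 libraries in each group the spread came from all 8 libraries and from the trend of the variance over genes. The separate cultures behind the replicates are not described further, so p-values measure the spread between these libraries.

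The 9 mRNAs differed widely in level when counts were divided by the summed exon length of each gene (CPM per kb, with isoforms pooled). In *siNcor1* at day 3 the order of the level per kb was *Uhrf1* at 43.6 ± 4.9 (mean ± SD, n = 2), *Dnmt1* at 41.1 ± 4.4, *Tet3* at 8.42 ± 0.14, *Tdg* at 5.78 ± 0.82, *Tet2* at 5.15 ± 0.88, *Dnmt3a* at 3.48 ± 0.12, *Dnmt3b* at 1.11 ± 0.17, *Tet1* at 0.548 ± 0.0058 and *Dnmt3l* at 0.16 ± 0.021. The neighbours *Uhrf1* and *Dnmt1*, and *Tdg* and *Tet2*, lay within their spread. The maintenance pair was thus the most abundant of the 9, and the genes typical of pluripotent cells were the least abundant. The *siOct4*-labelled libraries at day 3 had the same order, from 41.7 ± 0.058 for *Uhrf1* to 0.449 ± 0.0096 for *Tet1* and 0.407 ± 0.097 for *Dnmt3l*, and there the last pair lay within their spread. At day 6 *Dnmt3b* had moved up the order, to 3.42 ± 0.51 CPM per kb in *siNcor1* beside 3.16 ± 0.043 for *Dnmt3a*, 3.36 ± 0.025 for *Tet2* and 3.68 ± 0.76 for *Tdg*. These 4 neighbours did not differ beyond their spread in *siNcor1*, except that both *Tet2* libraries lay above both *Dnmt3a* libraries. Among *siOct4*-labelled libraries at day 6, *Dnmt3b* was at 3.44 ± 0.32 and *Dnmt3a* at 2.49 ± 0.057, and their libraries did not overlap. The order of *Dnmt3b* and *Dnmt3a* depends on their summed exon lengths, 5106 and 16642 bases, since *Dnmt3a* had more reads in every library.

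**Figure D1:**
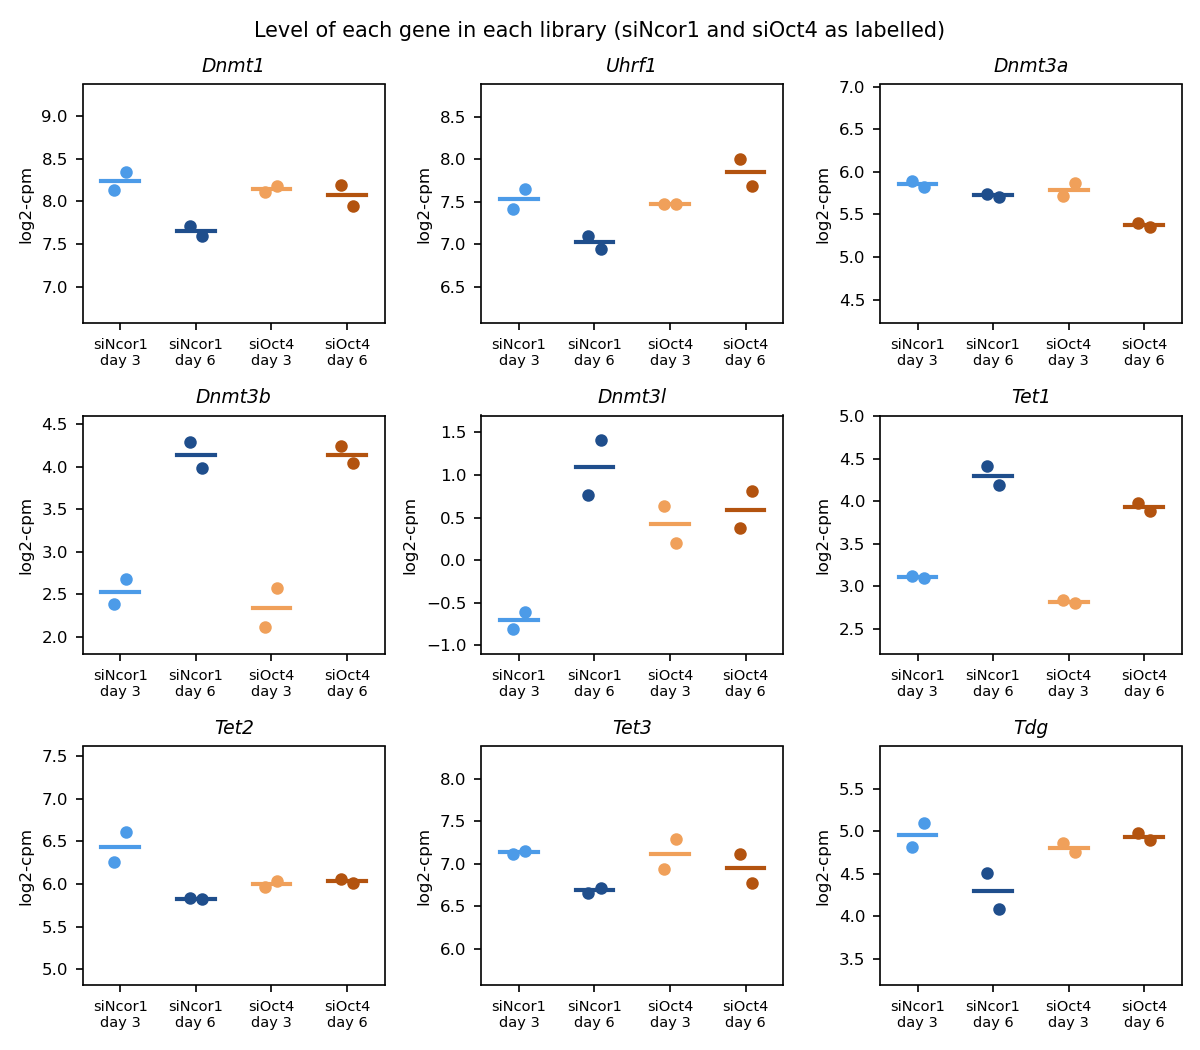
Level of each of the 9 genes in log2-cpm (vertical axis, each panel spanning the same width of 2.8 units) in the 4 groups, with a point for each library and a line at the mean of 2 libraries. *Dnmt3b* and *Tet1* were higher at day 6 than at day 3 under either siRNA, and *Uhrf1* was lower at day 6 in *siNcor1* and higher at day 6 in the *siOct4*-labelled libraries.

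The genome around the start of these genes bears on how they are usually described, since promoters with many CG dinucleotides are typical of widely expressed genes. RefSeq windows from 250 bases before to 50 bases after a transcript start (GRCm38.p6) were found for all 9 genes, 16 windows in all, among 32851 windows of the genome. E2F-type letters (TTTCCCGC, TTTGGCGC, TTTCGCGC or TTTGCCGC on either strand), typical of promoters of replication genes, were present in 2 of the 16 windows and in 2.26% of all windows. These were a window of *Dnmt1* and a window of *Uhrf1*, each with 33 CG dinucleotides against a median of 7 over all windows. The other windows of *Dnmt1* and *Uhrf1* and the window of *Tdg* held no such letters. Whether the letters bear on the levels described below was not tested. The 2 windows with matches are printed with the E2F-type letters in capitals, 5′ to 3′ on the gene's strand.
Dnmt1, chr9:20952574-20952873, minus strand: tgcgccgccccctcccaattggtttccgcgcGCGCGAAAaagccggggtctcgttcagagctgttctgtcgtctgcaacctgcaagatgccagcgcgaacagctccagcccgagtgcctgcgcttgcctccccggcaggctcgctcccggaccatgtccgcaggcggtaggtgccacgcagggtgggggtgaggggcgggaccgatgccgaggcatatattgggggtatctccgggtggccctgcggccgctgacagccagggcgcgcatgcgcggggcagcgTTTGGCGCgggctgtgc
Uhrf1, chr17:56304063-56304362, plus strand: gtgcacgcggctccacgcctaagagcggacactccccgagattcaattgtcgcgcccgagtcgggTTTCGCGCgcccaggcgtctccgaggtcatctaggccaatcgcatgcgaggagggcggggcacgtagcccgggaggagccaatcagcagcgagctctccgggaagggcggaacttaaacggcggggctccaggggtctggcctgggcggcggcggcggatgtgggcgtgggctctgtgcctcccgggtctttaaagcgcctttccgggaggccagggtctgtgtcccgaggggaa
The *Dnmt1* window held TTTGGCGC and, on the other strand, TTTCGCGC, and the *Uhrf1* window held TTTCGCGC. The windows of *Dnmt3b* and *Tet1*, which rose together with time, are printed for comparison with every CG in capitals, and they held 30 and 17 CG dinucleotides.
Dnmt3b, chr2:153649199-153649498, plus strand: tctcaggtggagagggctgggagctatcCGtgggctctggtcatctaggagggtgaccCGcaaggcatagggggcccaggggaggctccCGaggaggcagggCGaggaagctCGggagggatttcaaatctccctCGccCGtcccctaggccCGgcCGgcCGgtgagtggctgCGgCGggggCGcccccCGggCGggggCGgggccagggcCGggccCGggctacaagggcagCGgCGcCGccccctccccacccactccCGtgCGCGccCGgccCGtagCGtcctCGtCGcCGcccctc
Tet1, chr10:62887275-62887574, minus strand: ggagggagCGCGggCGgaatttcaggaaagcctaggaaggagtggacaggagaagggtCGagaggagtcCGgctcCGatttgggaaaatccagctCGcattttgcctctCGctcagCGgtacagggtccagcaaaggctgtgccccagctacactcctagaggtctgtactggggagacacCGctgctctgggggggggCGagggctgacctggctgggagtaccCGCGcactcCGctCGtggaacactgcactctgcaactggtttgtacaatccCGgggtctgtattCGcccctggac
The octamer ATGCAAAT, the letters that OCT4 is known for, was in 0 of the 16 windows and in 1.74% of all windows. The E-box CACGTG was in 3 windows, of *Dnmt3a*, *Dnmt3l* and *Tdg*, and in 7.15% of all windows. The window of *Tet2* held 57 CG dinucleotides and the 3 windows of *Dnmt3l* held between 3 and 6. These are matches of letters and show no binding.

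Between day 3 and day 6 of *siNcor1*, *Dnmt3b*, *Dnmt3l* and *Tet1* rose, and *Dnmt1*, *Uhrf1*, *Tet2*, *Tet3* and *Tdg* fell. The 3 members that rose are read against 13.8% of all tested genes that rose in this comparison, and the 5 that fell against 20.9% that fell. All 9 members had libraries of day 3 and day 6 that did not overlap, as did 73.1% of all genes. In *siOct4*-labelled libraries, *Dnmt3b*, *Tet1* and *Uhrf1* rose and *Dnmt3a* fell. There 22.2% of all genes rose and 30.5% fell, and 5 of the 9 members had libraries that did not overlap, against 74.8% of all genes. Without the *siNcor1* day 3 replicate 2 library, 3 members were called in *siNcor1* in place of 8, and likewise 3 without the *siNcor1* day 6 replicate 2 library. Without *siOct4*-labelled day 3 replicate 2, 2 members were called there in place of 4.

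**Figure D2:**
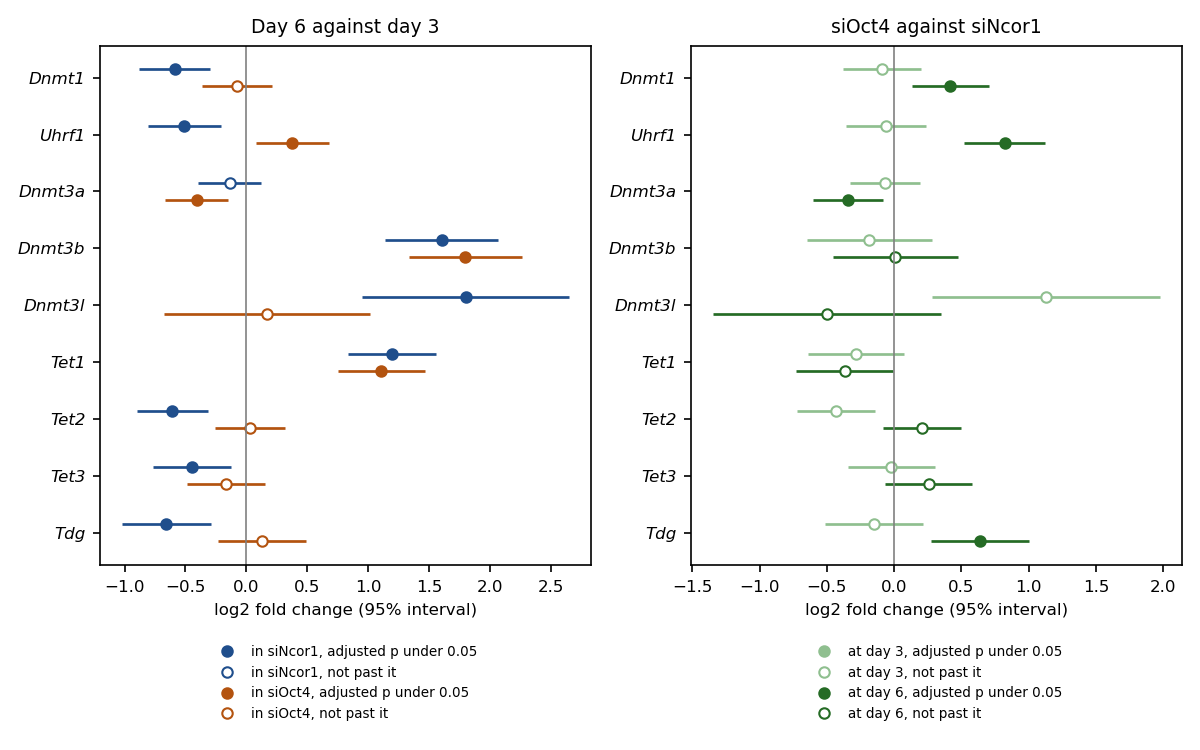
Log2 fold changes of the 9 genes (points, with 95% intervals from limma as lines) from day 3 to day 6 under each siRNA on the left, and of *siOct4* against *siNcor1* at each day on the right, with filled points where the adjusted p was under 0.05. The 2 intervals of *Dnmt3b* and those of *Tet1* for the change with time lie to the right of 0 and overlap each other, and no point is filled for the difference at day 3.

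*Dnmt3b* (chr2:153649450-153687730, plus strand, mm10) encodes the de novo methyltransferase that is prominent in early embryonic cells. In *siNcor1* it was at 2.38 and 2.68 log2-cpm at day 3 and at 4.28 and 3.98 at day 6. Under *siOct4* as labelled it was at 2.12 and 2.58 at day 3 and at 4.24 and 4.05 at day 6. Every day 6 library lay above every day 3 library, and at each day the siRNA groups overlapped. The log2 fold change with time was 1.60 (standard error 0.21, adjusted p = 2.67e-04) in *siNcor1*, which is 3.03-fold, and 1.79 (standard error 0.21, adjusted p = 3.71e-05) in the *siOct4*-labelled libraries, which is 3.47-fold. Both calls were kept under all 20 alternative fits. The siRNA groups differed by −0.18 (95% interval −0.65 to 0.28, adjusted p = 0.878) at day 3 and by 0.0098 (95% interval −0.45 to 0.47, adjusted p = 0.977) at day 6. Its antisense partner *Dnmt3bos* was not a row of the table, and whether the counting used strand is not given in the sources used here.

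*Tet1* (chr10:62804570-62908996, minus strand) encodes the TET enzyme that is prominent in pluripotent cells. It was at 3.12 and 3.10 log2-cpm in *siNcor1* at day 3 and at 4.41 and 4.19 at day 6. The *siOct4*-labelled libraries held 2.84 and 2.80 at day 3 and 3.98 and 3.88 at day 6. The day 6 libraries again lay above all day 3 libraries, and within each day both *siOct4*-labelled libraries lay below both of *siNcor1*. The rise was 1.19 (standard error 0.16, adjusted p = 3.37e-04) in *siNcor1* and 1.11 (standard error 0.16, adjusted p = 1.81e-04) in the *siOct4*-labelled libraries, and both calls were kept under all 20 alternative fits. The differences between the siRNAs did not pass the threshold, with −0.28 (95% interval −0.64 to 0.076, adjusted p = 0.637) at day 3 and −0.37 (95% interval −0.73 to −0.0092, adjusted p = 0.11) at day 6.

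Markers of late reprogramming moved in the same direction as *Dnmt3b* and *Tet1*. Of 8 such markers tested, 7 rose with time in *siNcor1* and 7 rose in the *siOct4*-labelled libraries. The filter used the mean over all libraries, so markers near 0 at day 3 passed it only through day 6. Among these were *Esrrb* (0 to 83 reads per library), *Lin28a* (0 to 90) and *Utf1* (0 to 49). *Zfp42* and *Dppa4*, with at most 3 and 4 reads, did not pass. Such markers could hardly fall with time, so the count is a description only. *Nanog*, a core pluripotency factor, had 17 and 11 reads in *siNcor1* at day 3 and 390 and 380 at day 6. Its reads were 4 and 0 in the *siOct4*-labelled libraries at day 3 and 123 and 197 at day 6. The summed level of the 10 listed markers was 10.6 to 10.8 CPM at day 3 and 110.5 to 118 CPM at day 6 in *siNcor1*, and 4.40 to 7.09 CPM and 47.9 to 53.3 CPM in the *siOct4*-labelled libraries. The marker sum was thus lower in the *siOct4*-labelled libraries at day 6. *Tet1* was also lower there, with a mean of 3.93 against 4.30 log2-cpm and libraries that did not overlap, as for 64.7% of all genes. That difference did not pass the threshold. *Dnmt3b* did not pass it either, and its libraries overlapped. A link between the marker sum and these genes was not tested. Of the 10 fibroblast markers, 7 rose and 2 fell with time in *siNcor1* (median 0.78), where 13.8% of all genes rose and 20.9% fell. Fewer of them fell there without day 3 replicate 2 or day 6 replicate 1. In the *siOct4*-labelled libraries 2 rose and 4 fell (median −0.27), where 22.2% of all genes rose and 30.5% fell. The part of the cell mixture in these results was not tested.

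*Dnmt3l* (chr10:78041947-78063622, plus strand), the cofactor of the de novo enzymes, was close to the limit of the libraries. It had 7 and 9 reads in *siNcor1* at day 3, 19 and 30 at day 6, 21 and 8 in the *siOct4*-labelled libraries at day 3, and 11 and 19 at day 6. On the log2-cpm scale these were −0.81 and −0.60, then 0.77 and 1.41, then 0.64 and 0.20, and 0.38 and 0.81. Both *siNcor1* libraries of day 3 were the lowest of the 8, and the day 6 *siOct4*-labelled libraries overlapped the 2 remaining groups. The rise in *siNcor1* was 1.80 (standard error 0.39, adjusted p = 0.00433), but without the day 6 replicate 2 library it no longer passed (1.48, adjusted p = 0.0548). No change passed the threshold in the *siOct4*-labelled libraries (0.17 (95% interval −0.67 to 1.02, adjusted p = 0.732)). Its values depend on the constant added before the logarithm, since with 1 CPM added the rise in *siNcor1* was 1.03 (adjusted p = 0.00557). Counting error is large at these depths, the gene overlaps *Aire* on the other strand, and the related pseudogene *Dnmt3l-ps1* held 4 to 11 reads per library.

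*Dnmt3a* (chr12:3806007-3914443, plus strand), the de novo enzyme of somatic cells, changed little with time in *siNcor1*. It was at 5.89 and 5.82 log2-cpm at day 3 and 5.74 and 5.71 at day 6, a difference of −0.14 (95% interval −0.39 to 0.12, adjusted p = 0.404). The values of the *siOct4*-labelled libraries were 5.71 and 5.87 at day 3 and 5.40 and 5.36 at day 6. The day 6 *siOct4*-labelled libraries were the lowest of the 8. The fall there was −0.41 (standard error 0.12, adjusted p = 0.0122), and it no longer passed without the day 3 replicate 2 library (−0.33, adjusted p = 0.113), with quantile normalization (adjusted p = 0.163) or with library totals that leave out *Gm26917* (−0.27, adjusted p = 0.0786, against −0.47, adjusted p = 0.00733 with full library totals). *Gm26917* is a non-coding gene that took 15.5% to 16.6% of reads at day 3 and 20.3% to 29.1% at day 6, and leaving it out of the library totals moved the median change of all genes with time from −0.14 to 0.055 in these libraries and from −0.073 to 0.0082 in *siNcor1*.

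The balance between related enzymes was read within each library, where the scaling of the library cancels. *Dnmt3b* over *Dnmt3a*, per kb of exon, was 0.279 and 0.362 in *siNcor1* at day 3 and 1.19 and 0.978 at day 6. In the *siOct4*-labelled libraries it was 0.262 and 0.326 at day 3 and 1.45 and 1.31 at day 6. By this measure *Dnmt3b* made up 20.8% to 26.6% of the summed *Dnmt3a* and *Dnmt3b* level at day 3 and 49.4% to 59.1% at day 6. These shares rest on dividing by summed exon lengths of 16642 bases for *Dnmt3a* and 5106 bases for *Dnmt3b*. Without that division *Dnmt3a* was above *Dnmt3b* in every library. The mean log2 ratio of *Dnmt3b* to *Dnmt3a* was then −1.59 in *siNcor1* and −1.24 in the *siOct4*-labelled libraries at day 6. *Tet1* made up 3.23% to 4.12% of the summed level of the 3 TET mRNAs at day 3. At day 6 its share was 12.7% and 10.8% in *siNcor1* and 7.62% and 8.34% in the *siOct4*-labelled libraries, and these groups did not overlap. *Tet3* held the greatest share of the 3 in every library, from 56.1% to 68.4%. These ratios are values and were not tested.

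**Figure D3:**
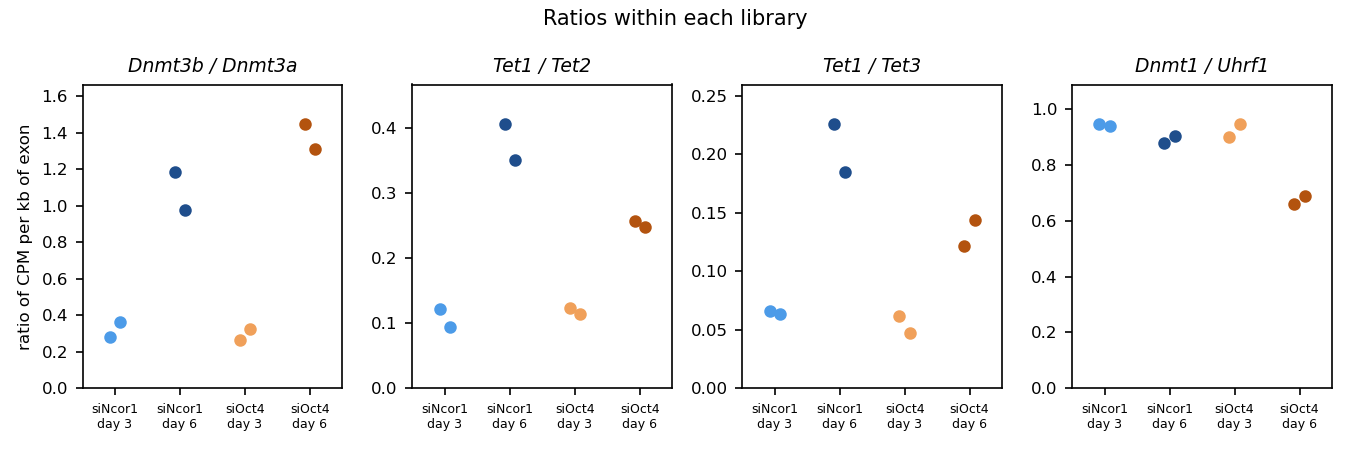
Ratios of CPM per kb of exon (vertical axes, each starting at 0) between pairs of genes in each library, with a point for each of the 2 libraries of a group. *Dnmt3b* over *Dnmt3a* lay between 0.262 and 0.362 at day 3 and between 0.978 and 1.45 at day 6, and *Dnmt1* over *Uhrf1* was lowest, at 0.660 and 0.688, in the day 6 *siOct4*-labelled libraries.

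*Uhrf1* (chr17:56303321-56323486, plus strand) recruits DNMT1 to newly replicated DNA. It was at 7.42 and 7.65 log2-cpm in *siNcor1* at day 3 and 7.10 and 6.95 at day 6, and at 7.47 and 7.47 and 8.01 and 7.69 in the *siOct4*-labelled libraries at day 3 and day 6. The groups overlapped at day 3, and at day 6 both *siOct4*-labelled libraries were above all others while both *siNcor1* libraries were below all others. At day 6 the difference between the siRNAs was 0.82 (standard error 0.14, adjusted p = 0.00162), which is 1.77-fold, and the call was kept under all 20 alternative fits. With time *Uhrf1* fell by 0.51 on the log2 scale in *siNcor1* (adjusted p = 0.0137) and rose by 0.37 (standard error 0.14, adjusted p = 0.0373) in the *siOct4*-labelled libraries. The difference between these changes was 0.88 (standard error 0.19, adjusted p = 0.00943). The fall did not pass without the *siNcor1* day 3 replicate 2 library (−0.39, adjusted p = 0.136) or the day 6 replicate 2 library (−0.43, adjusted p = 0.113), nor without the trend (adjusted p = 0.0504) or with quantile normalization (−0.34, adjusted p = 0.0777). The rise did not pass in 5 of the 8 fits that left out a library, namely either *siNcor1* library of day 6 (adjusted p = 0.0545 for each), either day 3 library labelled *siOct4* (0.114 and 0.125) or the day 6 replicate 1 library so labelled (0.206). It was also lost without the trend (adjusted p = 0.0881), with library totals (0.31, adjusted p = 0.0722) and with only the groups compared (adjusted p = 0.0815). The difference between the changes missed the threshold without replicate 2 of *siNcor1* at day 3 (0.77, adjusted p = 0.0632) or at day 6 (0.80, adjusted p = 0.0568).

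*Dnmt1* (chr9:20907209-20959888, minus strand), the maintenance methyltransferase, had the highest read count of the 9 genes. It was at 8.13 and 8.35 log2-cpm in *siNcor1* at day 3 and 7.71 and 7.59 at day 6, and at 8.11 and 8.18 and 8.20 and 7.94 in the *siOct4*-labelled libraries. Both *siNcor1* libraries of day 6 were the lowest of the 8. The change with time in *siNcor1* was −0.59 (standard error 0.13, adjusted p = 0.00534), and in the *siOct4*-labelled libraries it was −0.078 (95% interval −0.37 to 0.21, adjusted p = 0.642), a value whose sign turned with quantile normalization (0.15) and with library totals that leave out *Gm26917* (0.058, against −0.14 with full library totals). The fall in *siNcor1* missed the threshold without replicate 2 of day 3 (−0.48, adjusted p = 0.0696) or of day 6 (−0.53, adjusted p = 0.0549). At day 6 *Dnmt1* was higher in the *siOct4*-labelled libraries by 0.42 (standard error 0.13, adjusted p = 0.0326). That call was lost without *siNcor1* replicate 1 (0.48, adjusted p = 0.0823), without *siNcor1* replicate 2 (0.36, adjusted p = 0.215) and without replicate 1 labelled *siOct4* (0.29, adjusted p = 0.129), all of day 6, and also without the trend (adjusted p = 0.0808), with library totals (0.33, adjusted p = 0.0812) and with only the groups compared (adjusted p = 0.0722). *Dnmt1* over *Uhrf1* per kb was between 0.878 and 0.945 in the other 6 libraries and 0.660 and 0.688 in the day 6 *siOct4*-labelled libraries.

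At day 6, *Uhrf1*, *Tdg* and *Dnmt1* were higher in the *siOct4*-labelled libraries than in *siNcor1*, and *Dnmt3a* was lower. Over all genes 12.1% were higher and 18.6% were lower, and 7 of the 9 members had groups that did not overlap, against 64.7% of all genes. The 4 members called became 2 without *siNcor1* day 6 replicate 1, 1 without *siNcor1* day 6 replicate 2 and 2 without *siOct4*-labelled day 6 replicate 1. The difference of *Dnmt3a* was −0.34 (standard error 0.12, adjusted p = 0.0469), and it missed the threshold in each of the 8 fits that left out a library, with adjusted p between 0.0555 and 0.184. The call of *Dnmt3a* was kept in 6 of the 20 alternative fits, being lost also without the trend, with median centring, with quantile normalization, with library totals that leave out *Gm26917*, with no filter and with only the groups compared (adjusted p between 0.0577 and 0.105). *Uhrf1* was the only member called in each of the 20. Markers of cell types moved in the same comparison. Of the 10 fibroblast markers 8 were lower in the *siOct4*-labelled libraries and 0 were higher (median −0.78), with *Pdgfra* at −1.14, a growth factor receptor, and *Col1a1* at −1.01, a collagen chain, and of 4 neural markers 3 were higher and 0 were lower (median 1.19), with *Elavl3* at 1.75, an RNA-binding protein of neurons, and *Tubb3* at 1.71, a neuronal tubulin. The remaining neural marker, *Sox10*, went the other way at −0.82 (adjusted p = 0.23 by limma), with 4 to 22 reads per library. *Tubb3* was already higher at day 3 (0.82, adjusted p = 0.0202 by limma), a call not kept in every fit that left out a library. The neural markers called were 1 without *siNcor1* day 6 replicate 1 and 2 without *siNcor1* day 6 replicate 2 or *siOct4*-labelled day 6 replicate 1, and the fibroblast markers called were 6 to 10 when a library was left out. Their part in the differences of the 9 genes was not tested.

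At day 3 no member differed past the threshold between the siRNAs by limma, against 0.375% of all genes called higher and 0.692% called lower in the *siOct4*-labelled libraries. At an unadjusted p under 0.05 there were 2 members, *Dnmt3l* with 1.13 (95% interval 0.28 to 1.97, adjusted p = 0.256), or 0.58 with 1 CPM added before the logarithm, and *Tet2* with −0.43 (95% interval −0.72 to −0.14, adjusted p = 0.189), among 1460 of all genes. With voom on the recovered reads and in each of the other alternative fits the count of members called was also 0. The groups did not overlap for 3 members, *Dnmt3l* (higher) and *Tet1* and *Tet2* (lower), against 43.4% of all genes. In the main fit the intervals for *Dnmt1* (−0.38 to 0.20), *Uhrf1* (−0.36 to 0.24) and *Dnmt3a* (−0.33 to 0.19) held only differences below 0.4 on the log2 scale. Without the trend those of *Dnmt1* (−0.44 to 0.26) and *Uhrf1* (−0.44 to 0.31) went beyond it. Of the 84 tested genes in the 7 related lists described further on, 0 were called at day 3 by limma or by voom and 6 had an unadjusted p under 0.05, and 1 repair gene was called lower without either *siOct4*-labelled library of day 6.

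*Tet2* (chr3:133463679-133545139, minus strand), a TET enzyme without the CXXC domain of its relatives, was at 6.26 and 6.61 log2-cpm in *siNcor1* at day 3 and 5.83 and 5.82 at day 6. Its values in *siOct4*-labelled libraries were 5.97 and 6.04 and 6.05 and 6.01. Both *siNcor1* day 3 libraries were the highest of the 8, both *siNcor1* day 6 libraries were the lowest, and the *siOct4*-labelled libraries lay between them at either day. The change with time was −0.61 (standard error 0.13, adjusted p = 0.0046) in *siNcor1* and 0.03 (95% interval −0.26 to 0.32, adjusted p = 0.862) in the *siOct4*-labelled libraries, and the difference between these changes was 0.64 (standard error 0.19, adjusted p = 0.033). Without *siNcor1* day 3 replicate 2 the fall missed the threshold (−0.43, adjusted p = 0.0628). The difference between the changes missed it without *siNcor1* day 3 replicate 2 (0.46, adjusted p = 0.149), without either *siNcor1* library of day 6 (0.0847 and 0.114) and without either day 3 library labelled *siOct4* (0.0939 and 0.0837).

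*Tet3* (chr6:83362373-83459084, minus strand), the TET enzyme known for its role in the zygote, was at 7.12 and 7.15 log2-cpm in *siNcor1* at day 3 and 6.66 and 6.72 at day 6. In the *siOct4*-labelled libraries it was at 6.94 and 7.29 and 7.12 and 6.78, and those groups overlapped. The fall in *siNcor1* was −0.44 (standard error 0.15, adjusted p = 0.035) and missed the threshold without any of the 4 *siNcor1* libraries (adjusted p between 0.106 and 0.162). It was kept in 12 of the 20 alternative fits, being lost also without the trend (adjusted p = 0.094), with median centring (−0.40, adjusted p = 0.0652), with quantile normalization (−0.25, adjusted p = 0.236) and with library totals that leave out *Gm26917* (−0.37, adjusted p = 0.0856). At day 6 the siRNAs differed by 0.26 (95% interval −0.064 to 0.58, adjusted p = 0.207), a difference that passed the threshold without *siOct4*-labelled day 6 replicate 2 (0.43, adjusted p = 0.0391). The annotated non-coding genes *5430434F05Rik* and *B230319C09Rik* overlap *Tet3* and held 13 to 29 and 15 to 39 reads, against at least 1225 reads for *Tet3* in every library.

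*Tdg* (chr10:82629828-82650799, plus strand), which removes oxidised methylcytosine and mismatched thymine, was at 4.81 and 5.10 log2-cpm in *siNcor1* at day 3 and 4.51 and 4.09 at day 6. In the *siOct4*-labelled libraries it was at 4.86 and 4.75 and 4.98 and 4.89. The *siNcor1* day 6 libraries were the lowest of the 8, with replicate 2 furthest down. The change was −0.66 (standard error 0.17, adjusted p = 0.00989) in *siNcor1* and 0.13 (95% interval −0.23 to 0.49, adjusted p = 0.535) in the *siOct4*-labelled libraries, and at day 6 the siRNAs differed by 0.64 (standard error 0.17, adjusted p = 0.0141). Without *siNcor1* day 6 replicate 2 neither the fall (−0.45, adjusted p = 0.116) nor the difference at day 6 (0.43, adjusted p = 0.17) passed, and the fall also missed the threshold without *siNcor1* day 3 replicate 2 (−0.51, adjusted p = 0.111). The gene overlaps *Glt8d2* on the other strand, which held 4 to 21 reads, and has processed pseudogenes that could share reads with it.

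The change of the siRNA difference from day 3 to day 6 was tested for all 9 genes. *Uhrf1*, *Tet2* and *Tdg* had a more positive difference (*siOct4* minus *siNcor1*) at day 6, against 7.77% of all genes, and 0 members had a more negative one, against 12.9%. The value for *Tdg* was 0.79 (standard error 0.23, adjusted p = 0.0353). *Dnmt3l* had −1.63 (standard error 0.55, adjusted p = 0.0548) and *Dnmt1* had 0.51 (standard error 0.19, adjusted p = 0.0728), which missed the threshold. *Dnmt3l* did pass it without the trend (adjusted p = 0.035), with quantile normalization (0.0416) and with voom (0.0451), and *Dnmt1* passed with quantile normalization (0.0482). Both genes also passed without *siOct4*-labelled day 6 replicate 2, where the value of *Dnmt1* was 0.64. The calls of *Tet2* and *Tdg* were lost without the trend (adjusted p = 0.0847 and 0.081), and that of *Tet2* with library totals (0.0609). The number of members called was 0 without *siNcor1* day 3 replicate 2, 0 without *siNcor1* day 6 replicate 2, 1 without either day 3 library labelled *siOct4*, and 5 without the day 6 replicate 2 library so labelled. For *Tet1* the changes with time differed by −0.085 (95% interval −0.59 to 0.42, adjusted p = 0.828) and for *Dnmt3b* by 0.19 (95% interval −0.46 to 0.85, adjusted p = 0.682).

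Some partners of maintenance methylation and some genes of DNA replication were higher in the *siOct4*-labelled libraries at day 6, when 12.1% of all genes were higher and 18.6% lower. Of 7 partners tested, 3 were higher and 0 were lower (median 0.47, against −0.025 over all genes), namely *Pcna* at 0.76, the replication clamp, *Cdca7* at 0.74, an activator of the remodeller HELLS, and *Pclaf* at 0.49, a PCNA-bound factor that also recruits DNMT1, while *Usp7* at −0.086 was the partner with a negative value. Of 20 S phase genes, 11 were higher and 0 were lower (median 0.44), and all 20 had positive values. The examples with the largest differences were *Ccne2* at 0.91, a cyclin of the G1 to S transition, *Gins1* at 0.78, a subunit of the replicative helicase complex, *Mcm7* at 0.76, a helicase subunit, and *Cdt1* at 0.73, a licensing factor. Leaving out *siNcor1* day 6 replicate 2 left 2 S phase genes and 1 partner called, leaving out *siNcor1* day 6 replicate 1 left 7 and 2, and leaving out *siOct4*-labelled day 6 replicate 2 left 6 and 2.

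With time in *siNcor1*, 10 of the 20 S phase genes and 4 of the 7 partners fell and 0 rose (medians −0.43 and −0.49, against −0.068 over all genes, of which 20.9% fell and 13.8% rose), with *Rrm2* at −1.13 and *Rrm1* at −0.95, the ribonucleotide reductase subunits, *Cdca7* at −0.91 and *Usp7* at −0.74, a deubiquitinase that stabilises UHRF1 and DNMT1. Without *siNcor1* day 3 replicate 2, 4 S phase genes and 2 partners fell, and without *siNcor1* day 6 replicate 2, 6 S phase genes fell. In the *siOct4*-labelled libraries, 7 S phase genes rose and 3 fell (median 0.083, against −0.079 over all genes, of which 22.2% rose and 30.5% fell), with 1 partner in each direction, *Pcna* at 1.09 and *Usp7* at −0.68. Without day 3 replicate 2 of these libraries, 4 S phase genes rose, and without day 6 replicate 1, 2 partners rose. The cassette moved with these results, since the 4 OSKM genes were all higher at day 6 in the *siOct4*-labelled libraries (median 1.65), with a summed level of 3032 to 4434 CPM against 1114 to 1215 CPM in *siNcor1*. The part of replication or of the cassette in the levels of the 9 genes was not tested.

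The genes that supply methyl groups and that act after the TET enzymes were described from lists in the same way, and their counts are read against the shares over all genes, which were 12.1% higher and 18.6% lower at day 6, 13.8% rising and 20.9% falling with time in *siNcor1*, and 22.2% rising and 30.5% falling in the *siOct4*-labelled libraries. Of 12 methyl donor genes, 4 were higher and 1 was lower in the *siOct4*-labelled libraries at day 6 (median 0.32), with *Shmt2* at 0.96 and *Shmt1* at 0.84, the serine hydroxymethyltransferases, among those higher. With time 7 of the 12 fell in *siNcor1* and 0 rose, among them *Mtr* at −1.01, the methionine synthase, while 5 rose and 3 fell in the *siOct4*-labelled libraries. Of 16 tested genes of demethylation and base excision repair, 3 were higher and 2 were lower at day 6 in the *siOct4*-labelled libraries (median 0.23), with *Ung* at 1.26, the uracil glycosylase, *Parp1* at 0.51, a sensor of DNA breaks, *Gadd45g* at −1.26, a stress-induced factor, and *Apobec1* at −0.74, a cytidine deaminase. The difference of *Apobec1* was of like size at day 3, at −0.78 (adjusted p = 0.0719 by limma). The repair genes that rose do not act only on oxidised methylcytosine, since UNG removes uracil from replicated DNA. With time 4 of these 16 rose and 5 fell in *siNcor1*, and 7 rose and 2 fell in the *siOct4*-labelled libraries. Several of these counts rested on single libraries. Without *siNcor1* day 6 replicate 2, the methyl donor genes were 2 higher and 0 lower at day 6 and the repair genes 1 and 1. The count of lower donor genes was also 0 without *siNcor1* day 6 replicate 1 or *siOct4*-labelled day 6 replicate 2, and 1 of the lower repair genes was lost without *siNcor1* day 6 replicate 1. The 7 donor genes that fell in *siNcor1* were 4 without day 3 replicate 2 and 3 without day 6 replicate 2, and the 5 that rose in the *siOct4*-labelled libraries were 2 without day 3 replicate 2 and 3 without day 6 replicate 1. Of the repair genes in *siNcor1*, 2 rose without day 3 replicate 1 or day 6 replicate 1, and 2 fell without day 3 replicate 2 and 3 without either day 6 library. In the *siOct4*-labelled libraries, 1 repair gene fell without either day 3 library or without day 6 replicate 1.

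Of 11 TET cofactors and partners, 0 were higher and 3 were lower in the *siOct4*-labelled libraries at day 6 (12.1% and 18.6% of all genes), namely *Dppa3* at −2.43, *Slc23a2* at −0.79, an ascorbate transporter, and *Cxxc5* at −0.71, a CXXC protein. *Dppa3*, which protects maternal methylation and also binds UHRF1, rose with time under either siRNA. It had 0 reads in all 4 day 3 libraries, 78 and 91 reads in *siNcor1* at day 6, and 7 and 22 in the *siOct4*-labelled libraries at day 6. Of the 12 genes of targeting and protection, which include *Dppa3* again, 8 fell with time in *siNcor1* and 7 in the *siOct4*-labelled libraries, with *Dppa3* as the 1 that rose in each, where 20.9% and 30.5% of all genes fell. Examples were *Smchd1* at −1.20 in *siNcor1*, a silencing factor of the inactive X chromosome, and *Nsd1* at −0.82 and *Setd2* at −0.83 in the *siOct4*-labelled libraries, which methylate histone H3. Of 8 methyl-CpG readers, 3 fell in *siNcor1* and 5 in the *siOct4*-labelled libraries and 0 rose, with *Zbtb38* at −0.70 in the former and at −1.61 in the latter. At day 6, 2 of the 8 readers were lower in the *siOct4*-labelled libraries, against 18.6% of all genes, *Zbtb38* at −0.81 and *Zbtb4* at −0.81, both zinc finger proteins that bind methylated DNA. Without *siNcor1* day 6 replicate 2, 1 cofactor and 1 reader were lower at day 6, and 1 cofactor was higher without either day 6 library labelled *siOct4*. The readers that fell in *siNcor1* were 1 without day 3 replicate 2 and 0 without day 6 replicate 1, and those that fell in the *siOct4*-labelled libraries were 3 and 2 without day 3 replicate 1 and replicate 2.

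**Figure D4:**
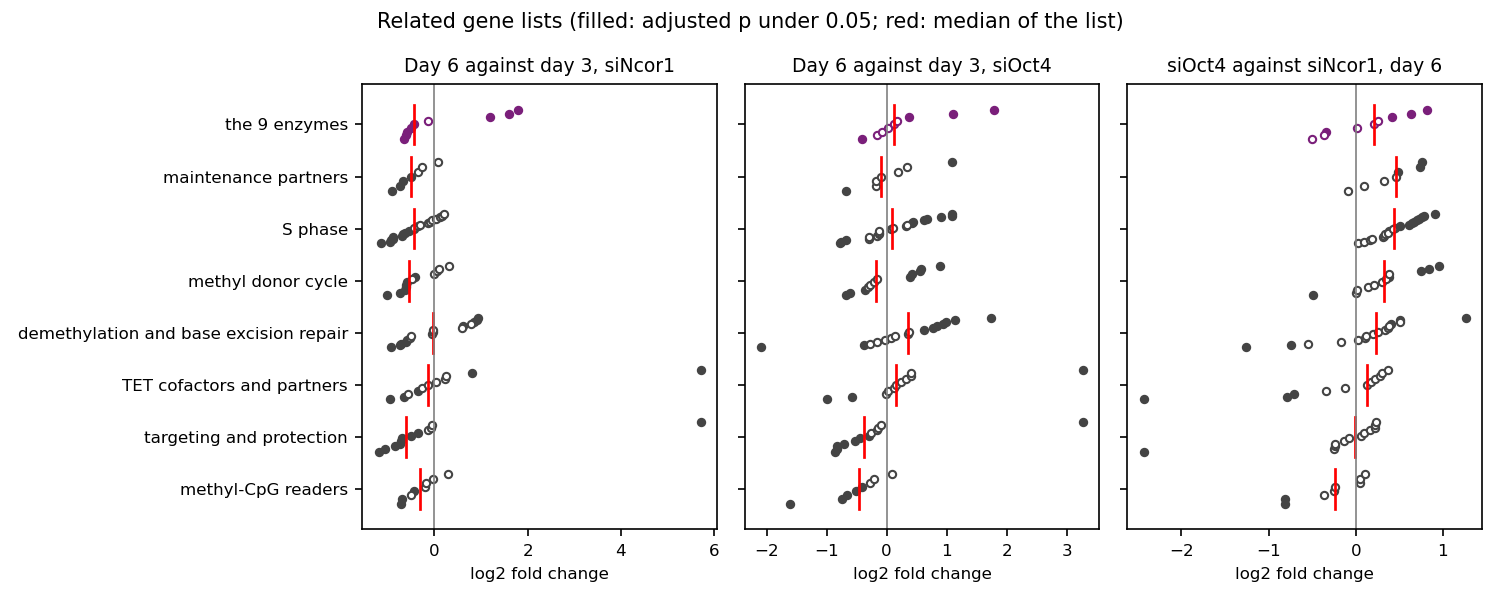
Log2 fold changes (horizontal axes) of the 9 genes and of the genes of 7 related lists in 3 comparisons, with filled points where the adjusted p was under 0.05 and a red line at the median of each list. In the right panel all 20 S phase genes lie to the right of 0, and in the left panel 10 of them are filled on the left side of 0. *Dppa3*, which is in 2 lists and had 0 reads at day 3, gives the points furthest to the right in the left and middle panels, whose position depends on the constant added before the logarithm.

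Germline genes that are known to be silenced by promoter methylation could not be followed. Of 16 listed, 4 were in the table and 0 passed the filter, and *Ddx4*, *Brdt*, *Tex19.1* and *Tdrkh* had between 1 and 18 reads in any library. Their summed level was between 1.98 and 2.67 CPM over the 8 libraries, and a difference between groups was not detectable at this depth.

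Among the 13857 other tested genes, the gene whose log2-cpm values were most like those of each member over the 8 libraries was found by Pearson's r, as a description, since the libraries of a group share their siRNA and day. *Recql4*, a replication helicase, was most like *Uhrf1* (r = 0.996), *Eef2k* most like *Dnmt1* (r = 0.990), *Ep300*, a histone acetyltransferase, most like *Dnmt3a* (r = 0.989) and *Bex2* most like *Dnmt3b* (r = 0.996). For the TET enzymes these were *Gpx2*, a glutathione peroxidase, for *Tet1* (r = 0.994), *Rbak* for *Tet2* (r = 0.965) and *B230216N24Rik* for *Tet3* (r = 0.970). *Eps15l1* was most like *Tdg* (r = 0.992), and *Dnajb9*, a chaperone of the endoplasmic reticulum, was most like *Dnmt3l* (r = 0.963). Within the 9 genes, the pairs with the highest r over the 8 libraries were *Dnmt3b* and *Tet1* (0.955), *Dnmt1* and *Tdg* (0.899), *Dnmt1* and *Tet3* (0.878) and *Uhrf1* and *Tdg* (0.874), and the lowest was that of *Dnmt3l* and *Tet2* (−0.862), while *Dnmt1* and *Uhrf1* had 0.774.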

How the data were processed

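Total RNA was depleted of ribosomal RNA and sequenced as paired reads, which the authors aligned to mm10 with STAR 2.5.2b. The deposited log2-cpm values were made by the authors with edgeR 3.20.9, and the read counter and its strand setting are not given in the sources used here. Removing the added constant gave whole reads for 100% of values within 0.1 read. Of 18990 genes, 18969 were matched to GENCODE M21, which gave coordinates and exon lengths. The 13866 genes whose mean reached 1 CPM were fitted with limma 3.58.1 in R 4.3.3 (lmFit and eBayes with trend) on the deposited values, all 4 groups together, with Benjamini-Hochberg adjustment at 0.05. The fit was run on simulated reads with planted changes larger than the called siRNA differences of the 9 genes. That run therefore does not bear on these calls. The members and lists were chosen with earlier results of these data known. Named were all 9 members, up to 4 called genes of largest change per list, and the genes most like each member, and 2 genes that this rule would name are not reported here. Promoter windows came from RefSeq (GRCm38.p6), and figures were drawn with matplotlib 3.10.9. The alternatives were 4 other scalings, 2 other filters, pseudocounts of 0.1 and 1 CPM, no trend, a replicate block, only the groups compared, voom on recovered reads and leaving out each library.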

Additional observations from a re-analysis of the deposited data

Results flagged for a closer look

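The change with time differed between the siRNAs for 3 of the 9 genes, by limma's test of the difference itself (interaction term), all 3 with a more positive change in the *siOct4*-labelled libraries, against 7.77% of all genes that were more positive and 12.9% that were more negative. The log2 difference between the changes, *siOct4* minus *siNcor1*, was 0.88 for *Uhrf1* (adjusted p = 0.00943), 0.64 for *Tet2* (adjusted p = 0.0330) and 0.79 for *Tdg* (adjusted p = 0.0353). For *Uhrf1* and *Tdg* the day 6 *siOct4*-labelled libraries lay above all those of *siNcor1* of that day. For *Tet2* the *siOct4*-labelled libraries lay below those of *siNcor1* at day 3 and above them at day 6. None of the 3 calls was kept without *siNcor1* day 3 replicate 2 (adjusted p = 0.0632, 0.149 and 0.161) or without *siNcor1* day 6 replicate 2 (adjusted p = 0.0568, 0.114 and 0.164).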

How the results depend on the processing

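Of 886 values of the members' log2 fold changes under alternatives, 793 kept their direction and side of the threshold, 64 lost the call, 7 gained it and 22 changed sign, none of the latter for a called member. At day 6, 2 members were called without the trend and 2 with only the groups compared, in place of 4. For the change of the siRNA difference, 5 were called with quantile normalization in place of 3. Leaving out each library gave 1 to 4 members at day 6, 3 to 8 with time in *siNcor1*, 2 to 4 with time in the *siOct4*-labelled libraries, 0 to 5 for the change of the siRNA difference and 0 to 0 at day 3. The replicate numbers were not shown to pair the libraries, since the correlations of same-numbered deviations lay between −0.040 and 0.281, and with the replicate block the members called were 0 and 4 between the siRNAs at day 3 and day 6, 8 and 4 with time, and 3 for the change, as without it. Signs turned as follows. With library totals, *Dnmt3b* was at −0.077 at day 6 and *Tet2* at −0.030 with time in the *siOct4*-labelled libraries. With quantile normalization, *Dnmt3a* was at 0.013 with time in *siNcor1*, and *Dnmt1* at 0.15, *Dnmt3l* at −0.16 and *Tet3* at 0.073 with time in the *siOct4*-labelled libraries. With library totals that leave out *Gm26917*, *Dnmt1* was at 0.058 there. Leaving out a library gave, at day 3, −0.20 to 0.018 for *Dnmt1*, −0.18 to 0.053 for *Uhrf1*, −0.15 to 0.010 for *Dnmt3a*, −0.41 to 0.045 for *Dnmt3b* and −0.20 to 0.16 for *Tet3*, and at day 6, −0.14 to 0.16 for *Dnmt3b*. With time in the *siOct4*-labelled libraries it gave −0.21 to 0.050 for *Dnmt1*, −0.049 to 0.39 for *Dnmt3l*, −0.0049 to 0.065 for *Tet2* and −0.34 to 0.0082 for *Tet3*. For the change of the siRNA difference it gave −0.035 to 0.42 for *Dnmt3b* and −0.20 to 0.027 for *Tet1*. The cause was not tested. *Dnmt3l* has no value with a mean of at least 10 CPM, and the change of the siRNA difference has none with only the groups compared, since it uses all 4. A group left with 1 library was assumed to vary like the others. Depth limits *Dnmt3l* most, with 7 to 30 reads per library.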
